A study of Bos taurus with 47 samples.

Results

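Heart was represented by 4 of the 47 bovine RNA-seq libraries in this tissue atlas, chosen as the columns that carry the tissue label Heart. Their mean was set against a mean over the other 14 tissue labels in which each label had the same weight, on the scale of log2(FPKM + 1). FPKM is the number of sequenced fragments scaled to gene length and library size. All animals were Holstein cattle with no treatment named. The heart libraries came from 2 males, here called male A and male B in the order of their animal numbers, and from 2 cows, named here by the label of their mammary sample as the dry cow and the lactating cow.

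The other labels were muscle, kidney, frontal cortex, rumen, lung, adipose, liver, ileum and spleen, each with 1 library from each of these 4 animals, ovary and uterus from the 2 cows, 1 lactating and 1 dry mammary gland, and 1 lymphocyte library from another male. The labels give 15 tissues and 5 animals, whereas the design text of the series speaks of 14 tissues and 4 individuals. Neither the age of the animals nor the chamber or wall layer of the heart is stated. Each animal gave 1 heart library, so the spread between animals cannot be separated from the spread between dissections. Except where a fit used only the hearts, p-values below rest on a spread pooled over all groups fitted. A gene that varies between the hearts can therefore get a smaller p-value than the hearts by themselves would give.

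Heart is built mainly of cardiomyocytes, striated muscle cells that contract throughout life on a continuous supply of ATP from mitochondria. They share much of their contractile machinery with skeletal muscle, although for many of its proteins each tissue uses its own gene. Fibroblasts, endothelial cells, smooth muscle, blood cells, nerve endings and fat make up the rest of the organ. In a piece of tissue, fewer cells of a type and less RNA per cell cannot be told apart. The deposited table lists 24616 Ensembl gene identifiers without gene names, and the reference table used here, with 37063 genes, pairs none of them with a symbol. The heart label could therefore not be set against cardiomyocyte markers such as the cardiac troponins, and genes are described below by rank, level and distribution over tissues, with 4 identifiers given in full.

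A small number of genes held most of the heart signal. The 10 most abundant genes carried 22.6% ± 2.35 (SD, n = 4) of summed FPKM, and the 100 most abundant carried 51.8% ± 2.86. The number of genes that together made up 50% of the sum was 90 in male A, 115 in male B, 82 in the lactating cow and 79 in the dry cow. Male B had the least concentrated library and also the most genes at 1 FPKM or more, 11691, against 11237 in male A, 10833 in the dry cow and 10800 in the lactating cow. By the same measure, muscle was more concentrated, with 36 to 39 genes for 50% of the sum in its 4 libraries. Among the labels, only muscle and the lactating gland, with 4 genes, lay wholly below the heart range of 79 to 115. Frontal cortex lay at the other end with 553 to 624.

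The most abundant heart gene reached 40063 FPKM in male A, 28863 in male B, 50717 in the lactating cow and 64586 in the dry cow, with a mean of 46057 ± 15238 (SD, n = 4). The dry cow was highest and male B lowest. Muscle was the next tissue, at 9851 FPKM, and none of the other 13 labels exceeded a mean of 24.2 FPKM, in kidney. Its difference from the other labels was 11.59 ± 0.35 (SE) on the log2 scale, with an adjusted p of 3.124e-26 by limma.

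The third most abundant gene, ENSBTAG00000006424, also showed the greatest log2 difference of the genes separated from all other libraries. Its FPKM was 28406 in male A, 22159 in male B, 30977 in the lactating cow and 28377 in the dry cow. The 4 heart libraries lay close together, with male B lowest. Muscle had only 4.75 FPKM of it, and the next label was ovary with 110 FPKM (mean of 2 libraries). The difference from the other labels was 12.09 ± 0.33 (SE) in log2 units (limma, adjusted p = 1.128e-27).

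The remaining leaders differed in how they were shared with muscle. The fifth gene was at 19229 FPKM in heart and 13049 FPKM in muscle, and no other label was above 10.2 FPKM. The seventh was at 11903 FPKM in heart with 3.90 in muscle and 10.9 in adipose, and the ninth at 11492 FPKM with 12.1 in muscle. The twelfth was lower in heart than in muscle, 7933 against 16171 FPKM, but far above the 5.66 FPKM of kidney, the next label.

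Not all abundant genes set heart apart. The eleventh, at 8376 FPKM, was exceeded by rumen at 9647 FPKM. Its log2 difference from the other labels was 0.98 ± 0.14 (SE), under the minimum of 2 required for a call, and turned to -0.16 under quantile normalization. The nineteenth and the twentieth also missed that minimum, with 1.87 and 1.94. Muscle was the next tissue for 14 of the 20 most abundant genes, and male B was the lowest heart library in 17 of the 20. As a set these 20 genes made up 29.1% of summed FPKM in heart.

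**Figure D1:**
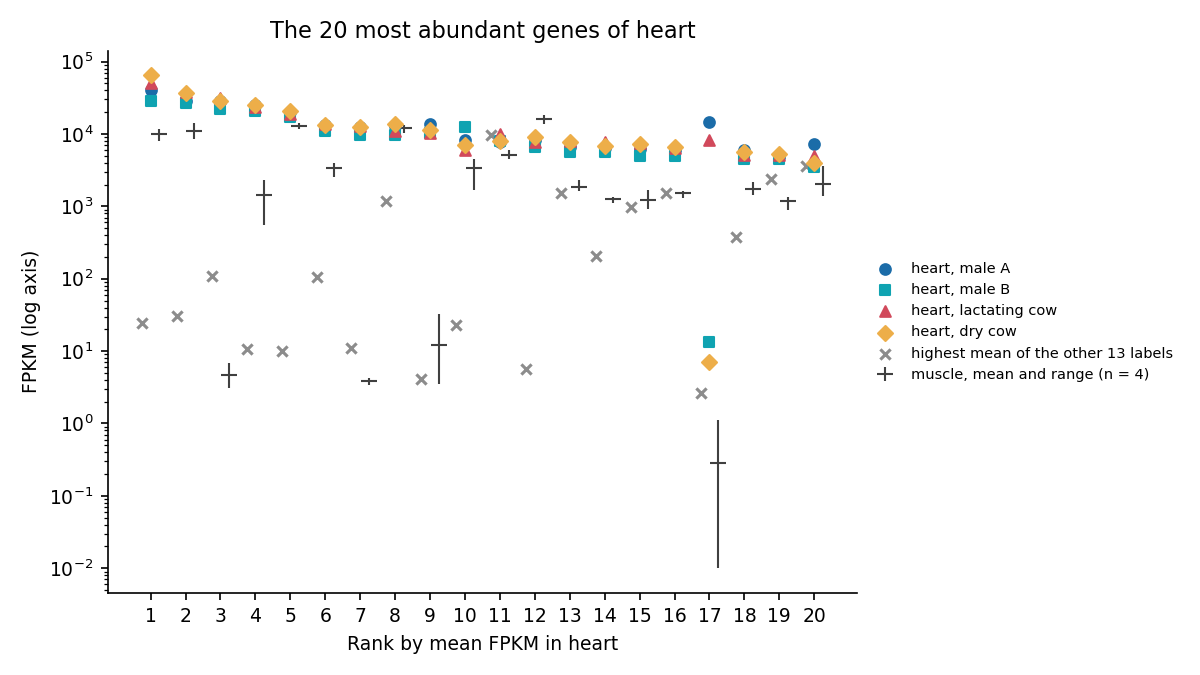
The FPKM (log axis) of the 20 genes with the highest mean in heart, by rank: each heart library is a point, muscle is a bar from its lowest to its highest library with a tick at the mean, and a cross is the highest mean among the other 13 labels. Muscle values of 0 are drawn at 0.01 FPKM. Heart libraries run furthest apart at rank 17, from 7.10 to 14565 FPKM, and span over 2-fold also at ranks 1, 10 and 20, and muscle lies at 4.75 and 3.90 FPKM at ranks 3 and 7 but above heart at rank 12.

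Across the genome, 16634 genes had at least 1 FPKM in at least 2 libraries and were tested with limma. At a Benjamini-Hochberg adjusted p under 0.05 and a log2 difference of at least 2, 645 genes were called higher in heart, 3.88% of those tested, and 340 were called lower, 2.04%. The calls leaned to the higher side, 65.5% of the total, while the median over all tested genes was -0.49. That lean depended on the scaling. With libraries rescaled to one sum it was 494 higher and 615 lower, the median moving by -0.20, and with quantile normalization it was 718 and 166, the median moving by 0.31. With a pseudocount of 0.1 instead of 1 it was 899 and 1410.

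Genes called higher were mostly well expressed, with a median heart level of 95.3 FPKM against 3.26 FPKM over tested genes. The rule has a part in this, since heart levels near 0 cannot give a log2(FPKM + 1) difference of 2. Of the 645, 91 had a heart mean of at least 1000 FPKM, 229 lay between 100 and 1000, 291 between 10 and 100, and 34 under 10. Together they made up 54.4% ± 4.19 (SD, n = 4) of summed FPKM, 55.2% in male A, 48.5% in male B, 55.8% in the lactating cow and 58.3% in the dry cow. Male B was again lowest. A log2 difference of at least 3 was reached by 308 genes, at least 5 by 83 and at least 8 by 24. In 300 of the 645, all 4 heart libraries lay above all 43 other libraries, a separation that 3% of all tested genes had. Against the 39 libraries that were neither heart nor muscle, 418 of the 645 were separated, compared with 4.00% of tested genes. Both separations partly follow from choosing the 645 for a high heart level.

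**Figure D2:**
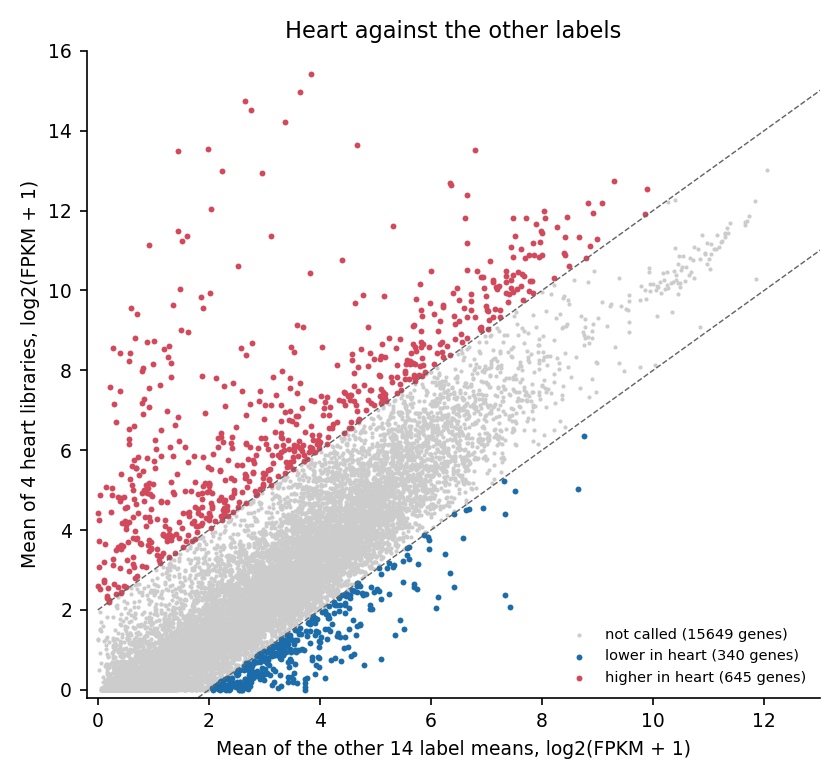
Each tested gene by its mean in the 4 heart libraries (vertical axis) and the mean of the other 14 label means (horizontal axis), both in log2(FPKM + 1); dashed lines mark a difference of 2 in either direction. The 645 genes higher in heart spread up to a difference of 12.09, while the 340 lower genes stay within 5.35 of the diagonal.

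Muscle was the tissue that came nearest to heart in the genes called higher. It was the highest of the other labels for 279 of the 645 genes (43.3%), compared with 4.40% of tested genes. Kidney followed with 86 genes (13.3%, against 9.77% of tested genes) and frontal cortex with 74 (11.5%, against 18.1%). Lymphocytes and spleen led only 5 genes each, although lymphocytes led 19.7% of all tested genes. Muscle was no more than 4-fold below heart in 363 of the 645 genes (56.3%), kidney in 201 (31.2%) and frontal cortex in 195 (30.2%). Over the 11237 genes with a heart mean of at least 1 FPKM, those shares were 87.0%, 92.1% and 89.7%. Muscle was thus more than 4-fold below heart more often than kidney was. A label above heart by any margin also counts as no more than 4-fold below it. The shares among the 645 describe genes chosen for a high heart level and carry no test.

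**Figure D3:**
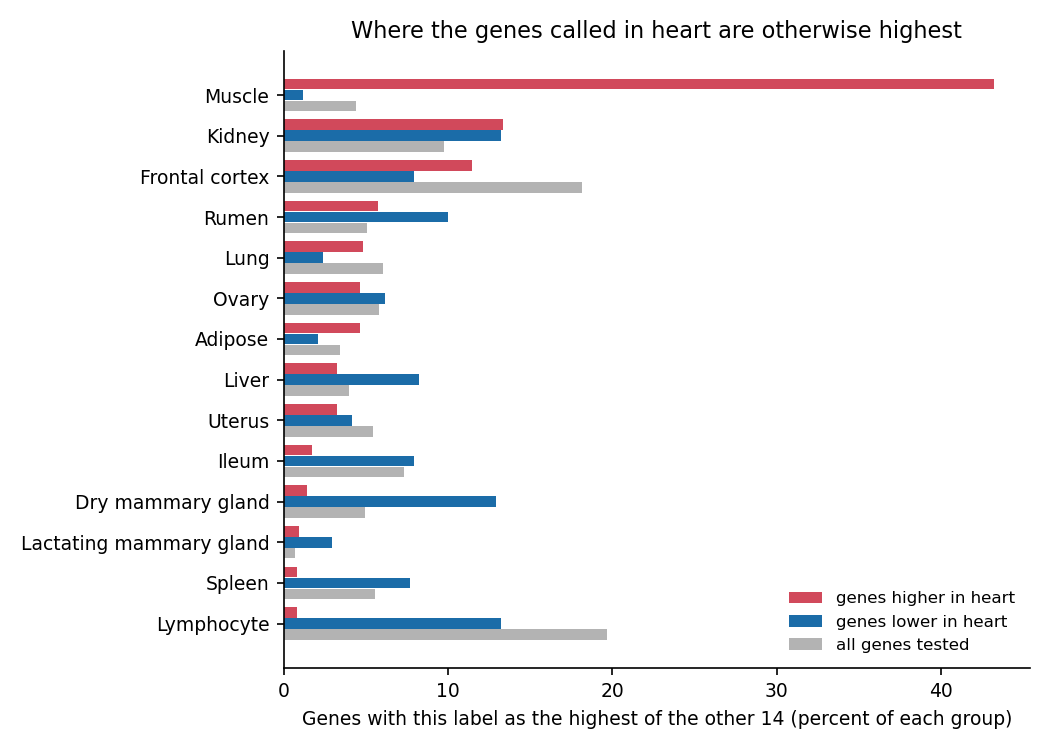
For each label other than heart, the percent of genes that had it as the highest of the 14 other labels, among the genes called higher in heart (645), called lower (340) and tested (16634). Muscle leads 43.3% of the higher genes and 1.18% of the lower ones.

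By their distribution, the higher genes fell into 3 groups. In 76 genes the heart mean was at least 4 times that of each other label. These had a median heart level of 233 FPKM, a median muscle level of 4.03 FPKM, and 20.5% ± 2.54 (SD, n = 4) of summed heart FPKM. Of the 76, 21 had at least 1 FPKM in all 14 other labels. In another 90 genes, heart and muscle were both at least 4 times above the other 13 labels. Their medians were 79.5 FPKM in heart and 112 FPKM in muscle, and their share was 12.8% ± 0.71. The remaining 479 genes were shared more widely, 244 of them with at least 1 FPKM in all 14 other labels, and made up 21.2% ± 1.10.

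Without requiring a call, 86 genes met the 4-fold rule for heart, the closest lying at 4.01-fold just inside and 3.98-fold just outside. These 86 are called heart-restricted here, a name for that margin and not for absence elsewhere. A margin of 10-fold was met by 30 of them and 100-fold by 9. They ranged from 1.29 to 46057 FPKM, with 47 at 100 FPKM or more. Muscle was the next label for 33, kidney for 9, and frontal cortex and adipose for 7 each. Their number was 215 when muscle was left out of the rule, and 54 after rescaling libraries to one sum.

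In a direct comparison of the 4 heart with the 4 muscle libraries, 3120 of 11877 tested genes (26.3%) were higher in heart and 811 (6.83%) lower, at an adjusted p under 0.05 and a log2 difference of at least 1. The median of all genes was 0.48 in favour of heart, and 79.4% of calls were on the heart side. Rescaling to one sum gave 65.0% on that side and quantile normalization 52.9%, moving the median by -0.28 and -0.44. Of the 94 genes high in both striated tissues whether called or not, 14 were higher in heart and 34 in muscle. That list excludes by rule any gene with a heart level 4 times that of muscle, while nothing limits the muscle side.

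The genes called lower in heart differed by less, up to 5.35 on the log2 scale. The scale has a part in this, since log2(FPKM + 1) stops at 0. A gene cannot lie further below the other labels than their own mean, while a rise has no such limit. Heart means of the 340 genes were under 1 FPKM for 174, from 1 to 10 FPKM for 148 and from 10 to 100 FPKM for 18, and 9 genes were listed at 0 in all 4 heart libraries. Together they held 0.10% of summed heart FPKM. Kidney and lymphocytes each led 45 of them (13.2%), against 9.77% and 19.7% of tested genes. The dry gland led 44 (12.9%, against 4.91%), rumen 34 (10%, against 5.04%) and liver 28 (8.24%, against 3.95%). A log2 difference of 3 or more was reached by 52 genes.

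ENSBTAG00000004948 led the lower genes that were separated from all other libraries. It was listed at 0 in male A, 0.031 FPKM in male B, 0.13 in the lactating cow and 0.046 in the dry cow. Heart was thus near 0 in each animal, while the dry mammary gland had 66.9 FPKM and muscle 0.36 FPKM. The log2 difference was -3.65 ± 0.29 (SE; limma, adjusted p = 1.108e-13). At heart levels this low its size is set by the 1 added to each FPKM, and it was -6.23 with 0.1 added.

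ENSBTAG00000046882, the next in that order, was expressed in heart but below every other library. Its FPKM was 6.80 in male A, 10.2 in male B, 5.88 in the lactating cow and 4.58 in the dry cow, against 27.7 in muscle and 385 in uterus. The log2 difference was -3.41 ± 0.31 (SE; limma, adjusted p = 3.745e-12). Uterus was the leading label for 7 of the 25 named lower genes, and spleen and the dry gland for 5 each. Some of the 7 ran closely together, such as a pair at 127 and 124 FPKM in uterus and 8.33 and 7.86 FPKM in muscle. Whether these identifiers are independent signals was not tested. Over all 340 lower genes uterus led only 14 (4.12%), below its 5.43% of tested genes. Spleen led 26 (7.65%, against 5.55%) and the dry gland 44 (12.9%, against 4.91%). Muscle led none of the 25. For 20 of them the naming rule itself placed muscle above heart.

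Most of the genes called lower in heart were also low in muscle relative to the 13 remaining labels. Muscle was at least 1 log2 unit below the mean of those labels in 308 of the 340 (90.6%), compared with 40.8% of tested genes. All 4 heart libraries were below all 43 other libraries in 20 of the 340, a state that 0.427% of tested genes had. At least 1 muscle library reached down to the heart values in 266 of the 340 (78.2%), less than the 90.1% of tested genes. Without muscle, 61 were below the other 39 libraries, against 2.26% of tested genes. The median muscle level of the 340 genes was 2.63 log2 units below the mean of the 13 remaining labels, where the median over tested genes was 0.79 below. Muscle was lower than heart in 173 of the 340 (50.9%), against 67.4% of tested genes, and heart was the lowest of all 15 labels in 75 (22.1%), against 4.52%. The 340 were chosen for a low heart level, so these shares partly follow from that choice and carry no test. Nor are they matched for level. The median of the mean over the 13 remaining labels was 32.6 FPKM in the 340 and 9.38 FPKM in tested genes.

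The 4 heart libraries were close to one another for most genes. Among the 11237 genes with a heart mean of at least 1 FPKM, the median SD of log2(FPKM + 1) was 0.24. The highest and the lowest library were less than 1.5-fold apart in 6225 genes (55.4%), at least 2-fold apart in 1440 (12.8%) and at least 4-fold apart in 120 (1.07%). Spearman's rho over these genes ran from 0.96 between male B and the dry cow to 0.98 between the cows, across genes that are not independent replicates.

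Male B stood apart from the other 3 libraries in a way that depended on expression level. It was the highest heart library for 6991 of 11237 genes (62.2%). In genes with a heart mean of 1 to 10 FPKM its median difference from the mean of the other 3 was 0.39 log2 units, in those from 10 to 100 FPKM 0.19, from 100 to 1000 FPKM -0.10, and above 1000 FPKM -0.17. The lactating cow ran the other way, from -0.23 in the lowest class to 0.18 in the highest.

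**Figure D4:**
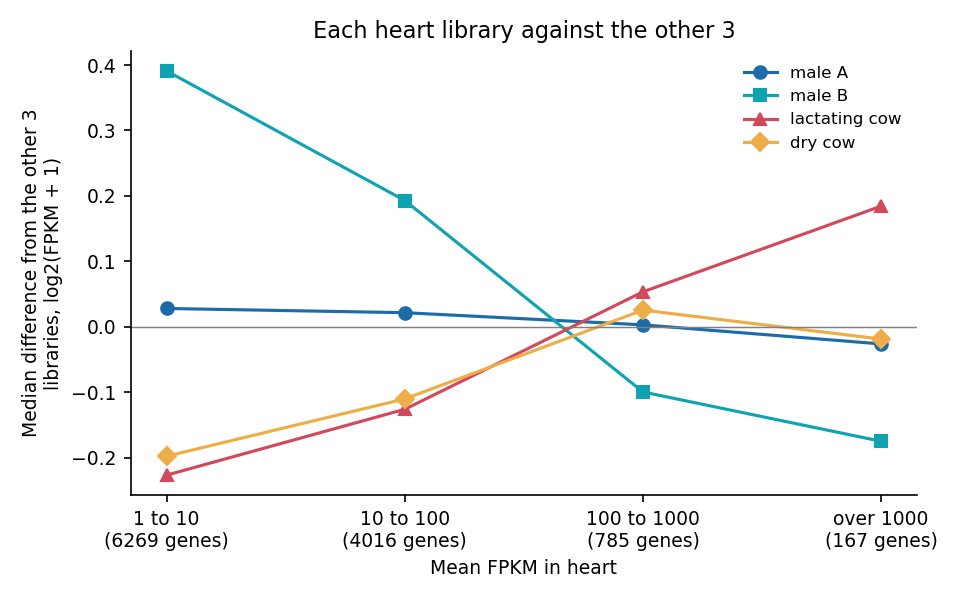
The median difference of each heart library from the mean of the other 3, in log2(FPKM + 1), by class of mean heart FPKM; the number of genes in each class is given under the axis. Male B falls from 0.39 to -0.17 with rising level and the lactating cow rises from -0.23 to 0.18, while male A stays within 0.03 of 0.

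The excess in male B was unequal over genes that lead in different tissues. In genes with lung as the highest other label its median difference was 0.61, with adipose 0.59, with the dry gland 0.48, with spleen 0.38 and with lymphocytes 0.37. In genes led by rumen it was 0.08 and in those led by muscle -0.05. Of the 86 heart-restricted genes male B was lowest in 47 (54.7%), against 12.6% of the 11237 genes. These shares are not matched for level. A heart mean of at least 100 FPKM, where male B ran low over all genes, was also reached by 47 of the 86. Of the 340 genes called lower in heart male B was highest in 218 (64.1%), against 54.4% of all 16634 tested genes and 62.2% of the 11237. A heart mean under 1 FPKM placed 174 of the 340 outside the 11237. Without male B's heart library, 659 genes were called higher and 433 lower. What set male B's library apart was not tested.

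A few genes varied by orders of magnitude between the 4 hearts. ENSBTAG00000002066, the seventeenth most abundant gene, was at 14565 FPKM in male A and 8373 in the lactating cow, but at 13.5 in male B and 7.10 in the dry cow. Male A and the lactating cow were far above the other pair, so neither sex was uniformly high. Among the 43 other libraries it was listed at 0 in 21, and the highest was a kidney library with 10.4 FPKM, which overlaps the lowest heart value. The log2 difference from the other labels was 7.85 ± 0.98 (SE; limma, adjusted p = 6.281e-09), and it stayed between 6.05 and 9.93 over the alternative settings. That SE uses a spread pooled over all labels, whereas the SD over the 4 hearts was 5.79 log2 units. Against muscle alone the difference was 8.16 ± 2.14 (SE; limma, adjusted p = 0.0057).

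The other 14 of the 15 most variable genes with a heart mean of at least 10 FPKM were less abundant, and 12 of the 15 were not called against the other labels. The second was at 58.2 FPKM in male A, 15.9 in male B, 0.18 in the lactating cow and 50.1 in the dry cow. Here the lactating cow was far below the rest. The tenth was at 666, 367, 815 and 57.9 FPKM in the same order, with the dry cow low and lymphocytes as the leading label. Over the 15 genes, male A, male B and the lactating cow were each highest in 5 and the dry cow in none, and the dry cow was lowest in 8. Over the 11237 genes with a heart mean of at least 1 FPKM, the dry cow was highest in 13.1% and lowest in 35.1%.

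**Figure D5:**
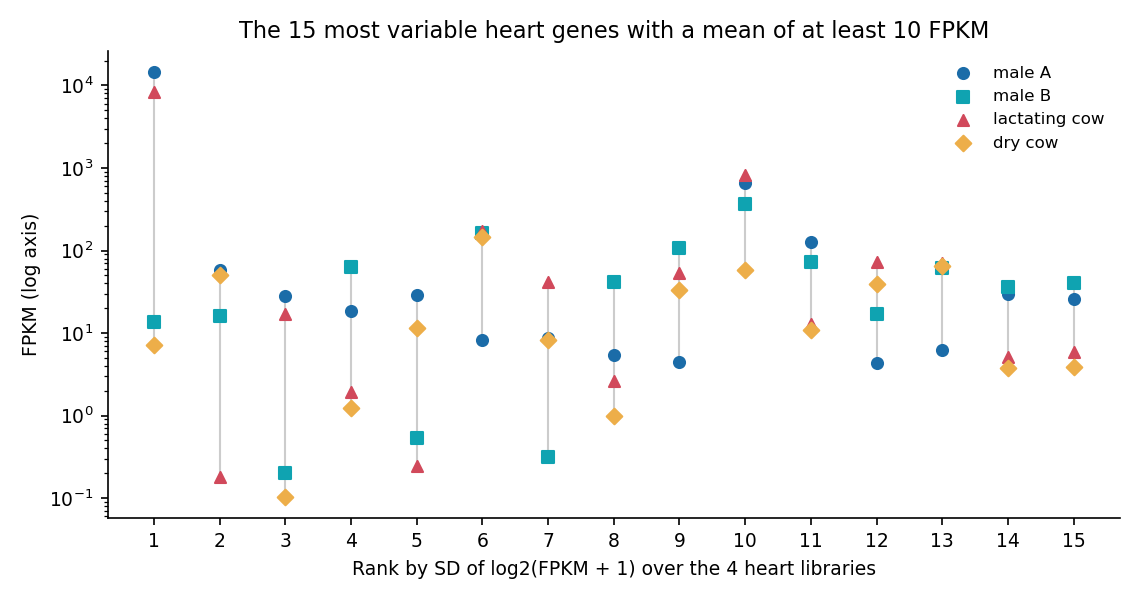
FPKM (log axis) of the 15 genes with the largest SD of log2(FPKM + 1) over the 4 heart libraries among those with a mean of at least 10 FPKM, each library a point joined by a line per gene. At rank 1 male A and the lactating cow lie at 14565 and 8373 FPKM, and male B and the dry cow at 13.5 and 7.10.

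Genes that mark other tissues were present in heart at unequal traces. The values depended on how the genes were chosen. Of 18 genes with at least 2000 FPKM in liver and 100 times less in every label outside heart, the summed heart level relative to that of liver was 387 parts per 1000000 (ppm) in male A, 528 ppm in male B, 0 in the lactating cow and 91.4 ppm in the dry cow. For 10 such genes of rumen it was 89.2, 104, 0 and 178 ppm. The lactating cow's heart library listed each of these genes at 0. Under a wider rule, at least 10 FPKM and 10 times every other label outside heart, 161 liver genes gave 860, 1168, 577 and 471 ppm in the same order, and 110 rumen genes 1018, 1090, 1015 and 1104 ppm. In the sums under that rule the lactating cow was not the lowest for liver and was level with the others for rumen. Gene by gene, however, the lactating cow's library listed the most genes at 0. For liver these were 107 of 161, against 32 in male A, 26 in male B and 66 in the dry cow. For rumen they were 66 of 110, against 55, 54 and 48. For 93 ileum genes the values were 860, 349, 370 and 237 ppm, with male A highest. For 20 genes of the lactating mammary gland by the wider rule they were 3.87, 4.30, 2.41 and 110 ppm, with only the dry cow high. The part of these levels in the results above was not tested.

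The design also places 2 males beside 2 females. In a limma fit over the 40 libraries of the 10 tissues sampled in all 4 animals, 510 of 16503 tested genes were higher in the hearts of males (3.09%) and 36 in those of females (0.218%), at an adjusted p under 0.05. Male B was the highest of the 4 in 465 of the 510 genes, and in 9017 of the 16503 tested. The count moved with each library left out, a step that leaves 1 heart in one sex and assumes that it varies like the other groups. Without male B 22 and 14 genes were called, without the lactating cow 89 and 8, without the dry cow 63 and 24, and without male A 1462 and 44. Under quantile normalization the split was 47 higher in males and 73 in females, and the 4 heart libraries alone gave 201 and 17. Lymphocytes led 113 of the 510 genes (22.2%, against 19.5% of tested genes), ileum 60 (11.8%, against 7.35%), the dry gland 58 (11.4%, against 4.90%) and lung 54 (10.6%, against 6.05%). Frontal cortex also led 58, below its 18.3% of tested genes, and kidney 18 (3.53%, against 9.83%). In 25 genes the sex difference in heart departed from its mean over the other 9 tissues at an adjusted p under 0.05 (limma interaction contrast), 18 upward (0.109% of genes tested) and 7 downward (0.0424%). Those counts were 3 and 6 without male B, 3 and 4 without the lactating cow, 6 and 15 without the dry cow, 141 and 11 without male A, and 2 and 23 under quantile normalization. With 2 animals of each sex, sex and animal cannot be told apart.

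The gene with the largest called male excess was at 18.3 FPKM in male A and 63.7 in male B, against 1.91 in the lactating cow and 1.24 in the dry cow. The sexes did not overlap, a state that 8400 of the 16503 tested genes had. Its leading label was spleen with 842 FPKM, and its log2 difference was 3.79 with an adjusted p of 0.0091 (limma). The call was lost without male B (adjusted p = 0.328), the lactating cow (adjusted p = 0.058) or the dry cow (adjusted p = 0.101). The largest called female excess was a gene at 8.68 and 0.31 FPKM in males A and B and at 41.9 and 8.15 FPKM in the lactating and the dry cow, with a difference of -2.47 (limma, adjusted p = 0.013). That difference ran from -3.91 to -1.03 when 1 heart library was left out, and the call was lost without male B (adjusted p = 0.635) or the lactating cow (adjusted p = 0.251) and with the 4 heart libraries alone (adjusted p = 0.136, limma). For that gene male A lay above the dry cow, so the sexes overlapped. It was higher in heart than in the other labels, by 3.04 ± 0.32 (SE), and no other label had a mean above 0.14 FPKM.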

How the data were processed

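RNA was extracted from 47 Holstein tissue samples and sequenced as 150 bp read pairs on an Illumina HiSeq instrument, per the labels' protocols. The authors deposited a table of FPKM values per Ensembl gene. Trimmomatic 0.39, STAR and Cufflinks were used with the UMD3.1 build, per the submitters' processing notes, while the sources used here do not give their order, their settings or the annotation release. The table has 51 columns, of which 47 could be tied to a sample and the other 4 were set aside. For male A the muscle column and sample title differ by 1 letter, and they were matched by tissue and animal.

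FPKM hold no read totals, so absolute depth is unknown and no counting error can be given. Relative depth of the heart libraries was estimated from the commonest ratio among genes under 0.2 FPKM. With male A set at 1, it was 0.94 in male B, 1.19 in the lactating cow and 1.035 in the dry cow. Tests used limma 3.58.1 with a trended prior in R 4.3.3 on log2(FPKM + 1), keeping genes that reached 1 FPKM in 2 or more of the libraries fitted, with Benjamini-Hochberg adjustment over all genes tested. Differences are on that scale and understate the change of low genes. Heart against the other labels used all 47 libraries, heart against muscle those 8, and sex the 40 libraries of 10 tissues.

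Named genes were the 20 most abundant, the 25 higher and 25 lower with the largest called differences, libraries that did not overlap first, the 15 most abundant heart-restricted, the 15 most variable, and the 10 largest sex differences each way. Members, rules and lists were chosen with earlier results of these data known. Gene lists written as symbols could not be applied. Same-numbered libraries come from the same animal. Their deviations from tissue means correlated with a median of 0.18, against -0.06 between animals. Deviations cancel out over the animals of a tissue, so the second value largely follows from the first and is no independent reference. Alternatives covered the pseudocount, filter, scaling, left-out libraries and labels, minimum difference and an animal block. For the sex comparison the block, and all alternatives of the interaction, were added after the results were seen.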

Additional observations from a re-analysis of the deposited data

Results flagged for a closer look

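In 10 of 93 named genes, 1 heart library lay apart from the other 3 by more than Dixon's criterion for 4 values, which chance meets in about 1 in 20 groups. Of the 10, 6 came from the lists of the most variable genes and of the largest sex differences, which were chosen by their spread over these 4 libraries, so that rate is no measure for them. The gap as a share of the whole range was 0.914 for the seventh most abundant gene, where male B was low at 9566 FPKM against 12581 to 12864, and 0.878 for the eleventh, where the lactating cow was high at 9928 FPKM. It was 0.837 for the seventeenth of the higher genes and 0.967 for the twelfth of the lower genes, with male B at 1.54 FPKM against 0.47 to 0.50 in the others. Among the most variable genes it was 0.848 for the sixth and 0.864 for the thirteenth, and 0.892 for the eighth, where male B was at 41.8 FPKM and no other heart above 5.41. It was 0.872 for the seventh gene higher in males, and 0.949 and 0.874 for the fourth and the fifth higher in females.

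The sex difference in heart differed from its mean over the other 9 tissues in 25 genes by an interaction contrast in limma at an adjusted p under 0.05, 18 more positive in heart (0.109% of genes tested) and 7 more negative (0.0424%). At an unadjusted p under 0.05 there were 1677. The third gene higher in females was among them, with an interaction of -1.97 (adjusted p = 0.023, limma) and heart levels of 1.05 and 0.46 FPKM in the males and 8.47 and 7.30 in the lactating and the dry cow. Its call was lost without male B (adjusted p = 0.278), the lactating cow (adjusted p = 0.205) or the dry cow (adjusted p = 0.057), and with a pseudocount of 0.1 (adjusted p = 0.196, limma).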

How the results depend on the processing

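In heart against the other labels, the lower count of 340 became 1410 with a pseudocount of 0.1, 615 after rescaling and 166 with quantile normalization, which kept 744 of the 985 calls in both directions, and a minimum difference of 1 gave 1508 higher and 3848 lower. Leaving out heart libraries gave 637 to 659 higher and 302 to 433 lower. Heart against muscle gave 2078 higher after rescaling, 1565 higher and 1394 lower with quantile normalization, and 685 and 311 at a minimum difference of 2. In the paired fits, a replicate block for the animal gave 622 higher and 372 lower without the lymphocyte library and, against muscle, 3128 and 818; no named gene lost or gained a call under it. Sex calls were 909 higher in males with a pseudocount of 0.1, 21 higher in females after rescaling, 47 and 73 with quantile normalization, 201 and 17 from the heart libraries alone and 141 and 20 at a minimum difference of 1, and ranged from 22 to 1462 higher in males and 8 to 44 in females when 1 heart library was left out. A replicate block as an estimated correlation within animal (0.04), added after the results were seen, gave 544 and 35. The 18 more positive and 7 more negative interaction genes numbered 13 and 6 with a paired animal term within sex, 2 negative with a pseudocount of 0.1, 12 negative with no filter, 7 and 4 after rescaling, 2 and 23 with quantile normalization, and 3 to 141 and 4 to 15 when 1 heart library was left out. Heart-restricted genes numbered 54 after rescaling and 215 without muscle. Of the named genes' values under these alternatives, 2193 kept their direction and side of the threshold, 92 lost a call, 12 gained one and 31 with no call moved. A gene on several lists was counted once for each, so these are counts of list entries and not of distinct genes. Low FPKM cannot be separated from sampling noise without read totals.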
